A study of Homo sapiens with 9 samples.

Results

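The DNA replication and nucleotide synthesis genes examined here are a list of 48 human genes whose products license, fire and copy origins or make the building blocks of DNA. Each was read from the deposited table of array intensities through its single-gene probe set with the highest mean, and all 48 were among the 12165 genes measured. They comprise 15 origin licensing genes, 16 genes of the replication fork, 6 genes of the sliding clamp and its loader, 5 genes of nucleotide supply, 4 genes that control entry into S phase and 2 subunits of the chromatin assembly factor CAF-1. The cells were LNCaP, an established androgen-responsive prostate cancer line, and every culture was first kept for 2 days in medium with charcoal-stripped serum, which removes steroid hormones. Of the 9 cultures, 3 then received the vehicles ethanol and DMSO, 3 received 1 nM R1881, a synthetic androgen that cells do not metabolise, with DMSO, and 3 received 1 nM R1881 with 1.25 µM celastrol, a plant triterpenoid. The vehicle and combined treatments lasted 24 h, while for the androgen arrays the titles give 6 h and the descriptions 24 h, so that treatment and duration cannot be told apart in comparisons with those arrays. The labels call the arrays of a group biological replicates without saying how the cultures were separated, and a p-value measures only the spread between them.

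By way of background, replication begins when the origin recognition complex, CDC6 and CDT1 load the MCM2-7 helicase onto DNA in G1, a step called licensing that geminin blocks after S phase has begun. The kinases CDC7 and CDK2, the latter bound to cyclin E, then turn the helicase on with the help of CDC45 and the GINS complex, and the clamp PCNA, loaded by replication factor C, holds the polymerases on their template. Many of these genes are known targets of the E2F transcription factors, and their transcripts are most abundant around the passage from G1 into S phase, so that in prostate cancer cells as elsewhere they are commonly read as signs of proliferation.

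Celastrol added to androgen lowered 24 of the 48 genes, raised 1 and left 23 without a call, at a limma adjusted p below 0.05. Among all genes tested 7.24 percent were lowered and 9.0 percent raised in the same comparison. The median log2 change of the replication genes was -0.49, against 0.02 over all genes. Of the 48, 40 lay below 0, against 5625 of all 12165 genes. A called fall of at least 2-fold occurred in 10 of the 48 and in 152 of the 12165. The combined treatment against vehicle gave a like count, with 23 lowered and 2 raised and a median of -0.43, where 10.0 percent of all genes were lowered and 13.3 percent raised. Androgen alone against vehicle raised 3 of the 48, ORC5, CDC6 and FEN1, and lowered 2, CCNE1 and CCNE2, with a median of 0.06, where 7.17 percent of all genes were raised and 5.84 percent lowered. With array medians subtracted or with cyclic loess, the androgen counts were 4 raised and 1 lowered. These 3 comparisons share arrays in pairs and are not independent. In bulk RNA such as this, fewer cells in S phase and less of a transcript in each cell cannot be told apart.

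**Figure D1:**
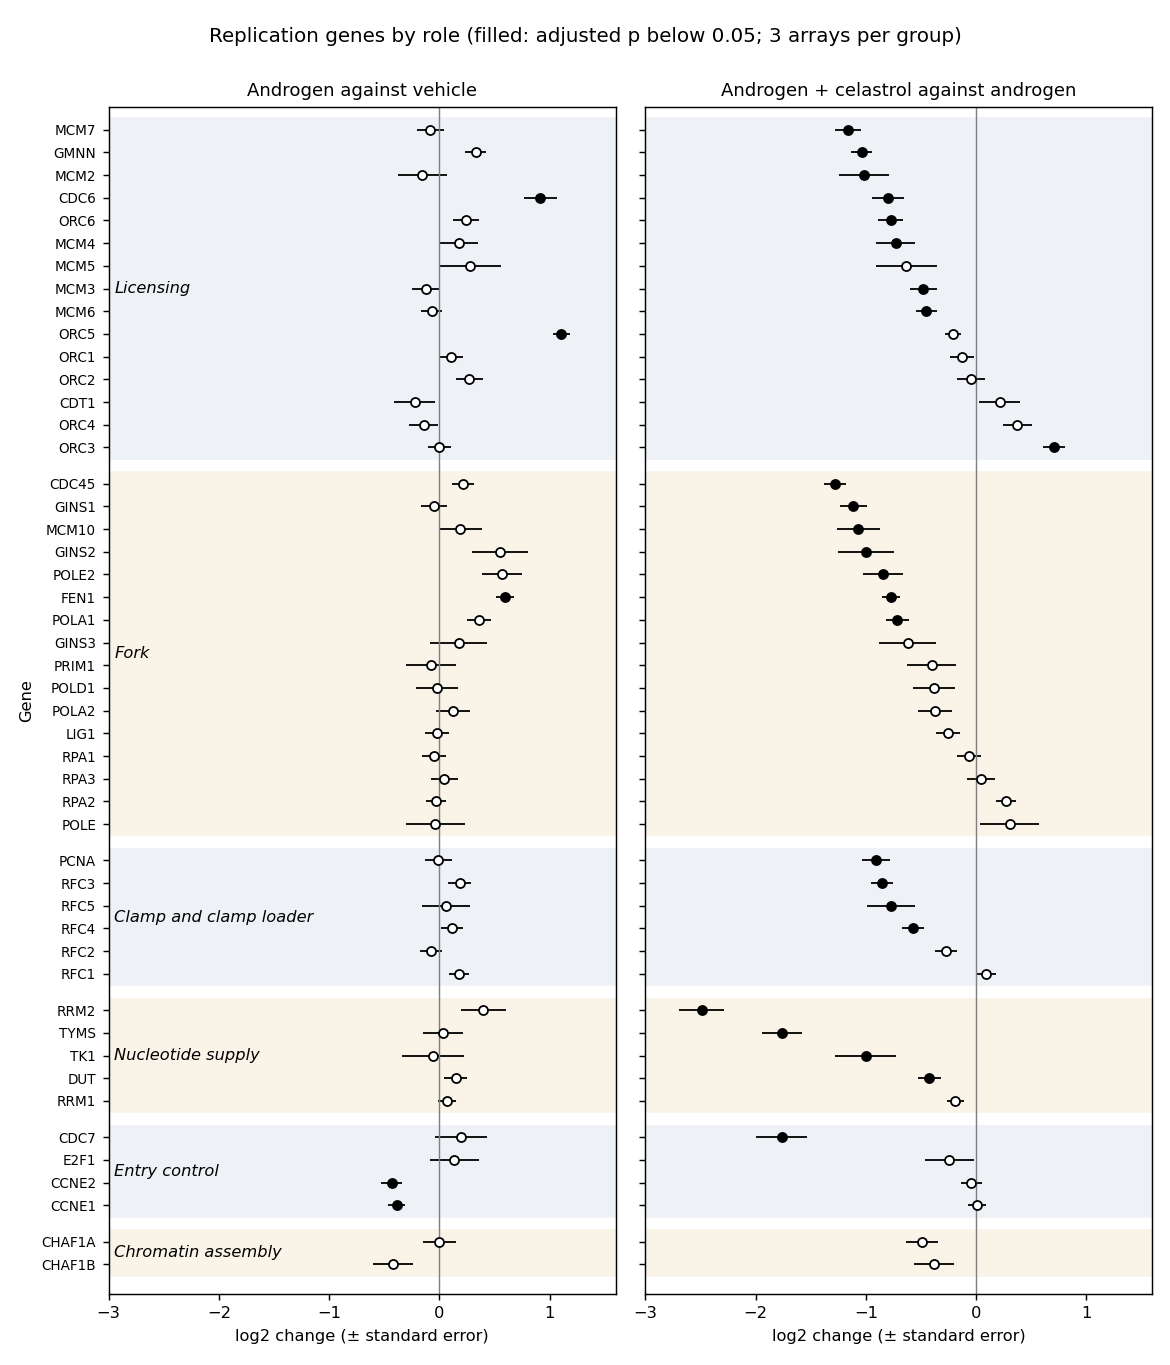
Log2 change of each of the 48 genes (horizontal axis) by role, with its standard error from limma (3 arrays per group); filled points have an adjusted p below 0.05. In the right panel 24 filled points lie left of 0 and 1 right of it, while in the left panel 5 points are filled.

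**Figure D2:**
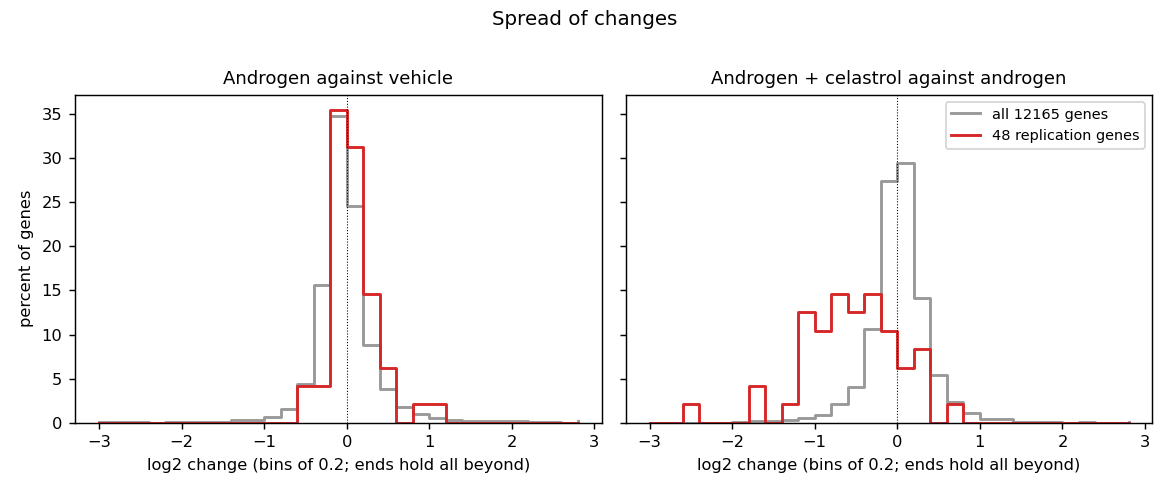
Share of genes (vertical axis, percent) by log2 change in bins of 0.2, for all 12165 genes and for the 48 replication genes. The replication genes lie around 0 for androgen (median 0.06) and are displaced to lower values for celastrol (median -0.49), with a minority at or above 0.

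The arrays themselves had similar median intensities, of 72.2 to 80.2. Vehicle array 3 stood apart, with an upper quartile of 332, where the other arrays had 377 to 409. It also had a standard deviation of 0.31 (log2) around its group's gene means, where the other arrays had 0.12 to 0.20. Without it, 28 of the 48 genes were called for celastrol against androgen (25 lowered, 3 raised), and the additional rises were those of ORC4 and RPA2. For androgen against vehicle 4 were raised and 3 lowered, and for the combined treatment against vehicle 2 and 27. The shares of all genes called without it are not given here, so these counts are not set against the other genes. Within the combined treatment, array 3 was the highest in 23 of the 24 genes that fell and array 1 the lowest in 17, so that the arrays were ordered in one way across the list. Over all 881 genes that celastrol lowered, array 3 was the highest in 66.5 percent and array 1 the lowest in 51.5 percent. The median distance of the 48 genes from their vehicle means was -0.57, -0.44 and -0.22 on the 3 arrays of the combined treatment and 0.13, 0.04 and 0.02 on the androgen arrays; what this order reflects was not tested. Without celastrol array 1 the falls against androgen numbered 20, and without celastrol array 3 they numbered 25. As a check on the labelled line, 8 of 10 luminal prostate markers were measured, KLK3 among them, and lay between percentiles 87.3 and 99.7 of all genes. The summed luminal markers ranged from 29393 to 30361 under vehicle, 51888 to 55459 under androgen and 39223 to 42664 under the combined treatment. Their members did not move together with androgen. KLK3, KLK2, TMPRSS2, KRT8 and KRT18 rose, by 1.18 (KRT18) to 4.98 (KLK2) on the log2 scale. FOLH1 and EPCAM fell, by 0.51 and 0.36, and HOXB13 changed by -0.42 without a call. The 10 measured leukocyte, fibroblast, endothelial and basal markers lay between percentiles 14.1 and 40.3, with sums per cell type of 57.1 to 192.1. Of these 10 markers, 2 were called in some comparison, and their part in the results was not tested. The endothelial marker VWF read 125, 107 and 106 under vehicle, 55.9, 44.6 and 54.5 under androgen and 55.5, 43.1 and 41.6 with celastrol, and fell by 1.13 ± 0.14 (log2) with androgen and by 1.28 ± 0.14 with the combined treatment against vehicle (limma adjusted p = 0.000753 and 0.000232). The endothelial sum accordingly ranged from 138.1 to 161.9 under vehicle, 71.8 to 88.4 under androgen and 68.1 to 114.6 with celastrol. The fibroblast marker COL1A1 read 79.1, 67.9 and 66.4 under vehicle, 54.9, 53.0 and 54.3 under androgen and 67.4, 65.4 and 86.1 with celastrol, and rose by 0.42 ± 0.12 with celastrol against androgen (limma adjusted p = 0.0446).

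The promoters of the 48 genes were examined as a description, from reference sequence only. RefSeq windows (build GRCh38.p14) from 250 bases before to 50 after a gene's start were held for 43 of the 48 genes, in 57 windows. They were searched on both strands for the E2F words TTTGGCGC, TTTCCCGC, TTTCGCGC and TTTGCCGC, for the CCAAT box (CCAAT) and for the cell cycle homology region (TTTGAA). E2F words can overlap each other on opposite strands, as they did in MCM2 and MCM6. At least 1 E2F word lay in 22 of the 43 genes (51.2 percent), against 595 of 9709 tested genes with a window (6.13 percent), or in 38.6 percent of the 57 windows against 3.31 percent of all 35116. The CCAAT box was in 58.1 percent of the 43 genes and 44.3 percent of the 9709, and TTTGAA in 4.65 and 15.4 percent. Of the 22 genes with an E2F word celastrol lowered 15 and raised 1, with a median log2 change of -0.76, and of the 21 without it lowered 8, with a median of -0.38. Over all tested genes, which include those of the list, 11.9 percent of those with a word and 7.33 percent of those without were lowered. Their median log2 changes were 0.004 and 0.02. Since many of the 48 are known E2F targets, a high share of E2F words among them was likely from the outset. A matching word is a description of the letters and not of a bound site.

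The 250 bases before the start are printed 5′ to 3′ on the gene's strand with E2F words in capitals, first for the 4 genes with the largest celastrol change whose window holds a word before the start. These are TYMS at chr18:657403-657652 (plus strand), CDC7 at chr1:91500862-91501111 (plus strand), MCM7 at chr7:100101398-100101647 (minus strand) and GMNN at chr6:24775163-24775412 (plus strand).
TYMS: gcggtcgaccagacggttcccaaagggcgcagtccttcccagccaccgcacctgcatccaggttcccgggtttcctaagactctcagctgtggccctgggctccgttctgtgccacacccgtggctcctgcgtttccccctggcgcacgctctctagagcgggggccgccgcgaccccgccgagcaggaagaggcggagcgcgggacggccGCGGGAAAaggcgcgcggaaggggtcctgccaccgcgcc
CDC7: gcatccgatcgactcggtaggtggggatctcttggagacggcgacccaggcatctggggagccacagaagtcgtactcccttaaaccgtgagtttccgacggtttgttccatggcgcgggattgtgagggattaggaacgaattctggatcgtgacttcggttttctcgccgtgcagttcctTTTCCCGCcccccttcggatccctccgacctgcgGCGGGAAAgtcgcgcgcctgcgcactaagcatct
MCM7: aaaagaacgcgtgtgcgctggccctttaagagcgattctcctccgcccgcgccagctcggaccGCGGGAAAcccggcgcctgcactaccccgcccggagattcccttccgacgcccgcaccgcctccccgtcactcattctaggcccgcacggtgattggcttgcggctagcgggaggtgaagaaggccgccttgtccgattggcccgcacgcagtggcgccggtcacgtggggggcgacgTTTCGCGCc
GMNN: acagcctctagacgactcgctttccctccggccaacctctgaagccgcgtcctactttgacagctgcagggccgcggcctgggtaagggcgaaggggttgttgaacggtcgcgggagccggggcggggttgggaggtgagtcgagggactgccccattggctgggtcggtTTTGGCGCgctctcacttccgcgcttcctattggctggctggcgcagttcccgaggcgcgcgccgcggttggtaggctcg
TYMS and GMNN have 1 word each, and CDC7 and MCM7 have 2. The words end 32 bases before the start in TYMS, 61 and 27 in CDC7, 180 and 2 in MCM7 and 73 in GMNN. For contrast, CDT1 at chr16:88803539-88803788 (plus strand) has the smallest celastrol change among genes with a word, and ORC3 at chr6:87589885-87590134 (plus strand) is the gene that celastrol raised.
CDT1: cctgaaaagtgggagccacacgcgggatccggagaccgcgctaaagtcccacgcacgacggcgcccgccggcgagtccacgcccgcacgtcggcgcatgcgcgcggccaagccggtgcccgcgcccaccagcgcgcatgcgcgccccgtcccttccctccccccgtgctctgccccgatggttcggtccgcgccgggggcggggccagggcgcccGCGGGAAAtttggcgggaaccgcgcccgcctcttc
ORC3: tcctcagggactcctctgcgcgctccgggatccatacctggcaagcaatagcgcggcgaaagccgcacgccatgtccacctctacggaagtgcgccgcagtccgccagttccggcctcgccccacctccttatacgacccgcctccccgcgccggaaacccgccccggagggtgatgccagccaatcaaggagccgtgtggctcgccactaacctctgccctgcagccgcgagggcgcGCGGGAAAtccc
Each has 1 word close to the start, ending 28 and 5 bases before it. The word in both, GCGGGAAA, also occurs in TYMS, CDC7 and MCM7, which fell. CDT1 changed by 0.21 ± 0.19 without a call (95% interval -0.21 to 0.64) and was dim, at the 26.4th percentile of all genes. Whether its dimness bears on this result was not tested. What part the word has in these changes was not tested. RRM2 at chr2:10122489-10122738 (plus strand), with the deepest fall of the 48, holds none of the 4 E2F words and 3 CCAAT boxes, here in capitals.
RRM2: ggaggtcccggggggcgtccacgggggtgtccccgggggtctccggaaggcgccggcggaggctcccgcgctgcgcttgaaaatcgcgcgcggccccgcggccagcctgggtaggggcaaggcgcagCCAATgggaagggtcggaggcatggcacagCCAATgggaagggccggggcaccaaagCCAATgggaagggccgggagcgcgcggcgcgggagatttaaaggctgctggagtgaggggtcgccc
The windows of ORC3 and RRM2 were chosen for printing after their values had been seen.

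**Figure D3:**
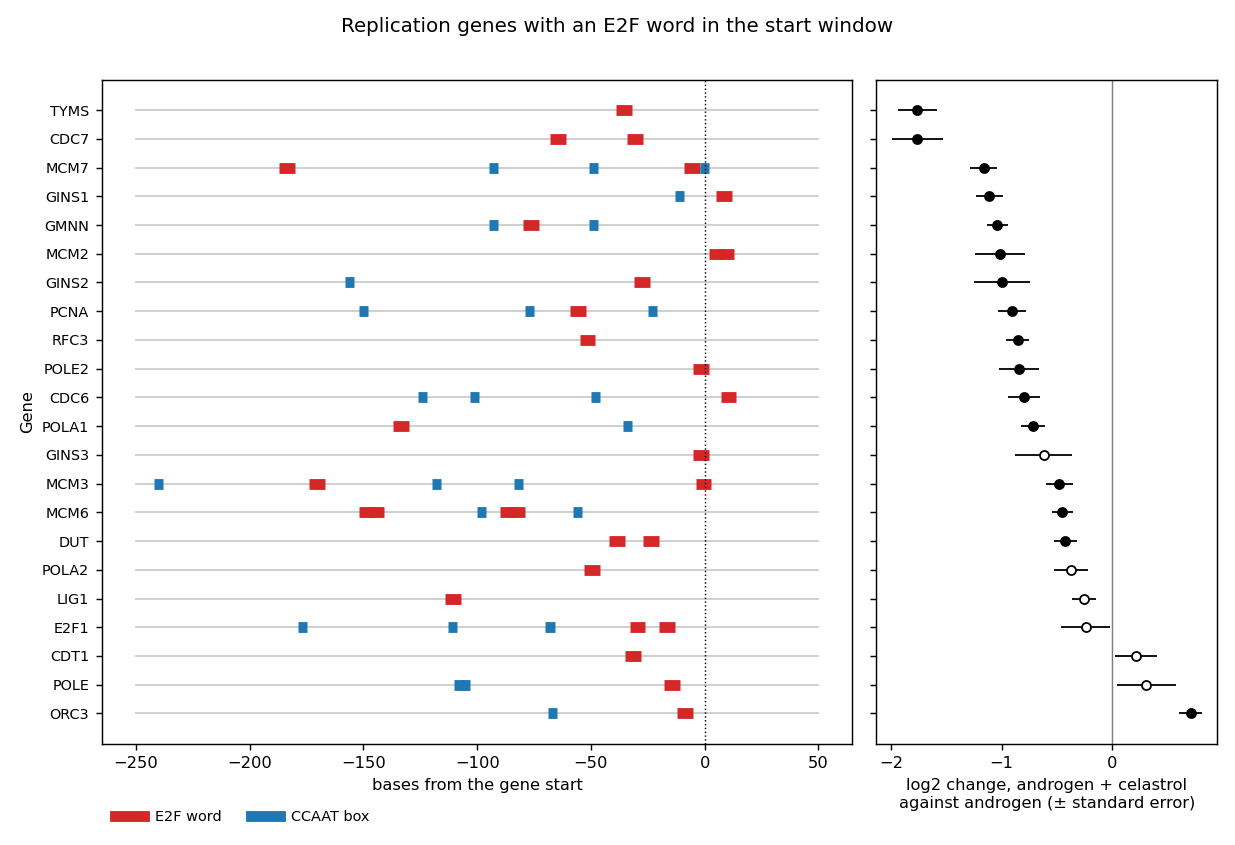
Positions of E2F words (red) and CCAAT boxes (blue) in bases from the gene start (left, dotted line at the start) for the 22 genes with an E2F word, ordered by their log2 change under celastrol with its standard error (right; filled points have a limma adjusted p below 0.05, 3 arrays per group). Words lie mostly within 100 bases of the start both in genes that fell and in the genes at the bottom that did not.

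In nucleotide supply celastrol lowered 4 of 5 genes, with the lowest median of the 6 roles, at -1.002. Of all genes tested, 7.24 percent were lowered and 9.0 percent raised, which is the background for each role below. RRM2, the regulated small subunit of ribonucleotide reductase, which makes deoxyribonucleotides, read 2048, 2048 and 2502 on the vehicle arrays, 3099, 2689 and 2888 on the androgen arrays and 392, 476 and 726 on those with celastrol. The highest celastrol array lay below every other array, and the mean was 5.62-fold lower than with androgen alone (log2 change -2.49 ± 0.20, limma adjusted p = 0.000108). A second probe set of RRM2 gave -2.68. The large subunit RRM1, which is known to vary less over the cell cycle, read 1043, 1043 and 1043 under vehicle, the same deposited value on all 3 arrays, then 1156, 1077 and 1052 under androgen and 905, 953 and 1024 under the combined treatment. Its celastrol arrays also lay below all androgen arrays, but its log2 change of -0.19 ± 0.08 did not pass the threshold (limma adjusted p = 0.159; 95% interval -0.37 to -0.01).

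TYMS, thymidylate synthase, which makes dTMP from dUMP, read 2107, 2383 and 1824 under vehicle, 2398, 2033 and 2008 under androgen and 569, 529 and 834 with celastrol. The groups treated with and without celastrol did not overlap, and the fall was 3.39-fold (log2 change -1.76 ± 0.18, limma adjusted p = 0.000309). Its other, dim probe set changed by -0.21 and was not called (adjusted p = 0.506 over probe sets). TK1, thymidine kinase, which salvages thymidine, read 183, 199.97 and 121 under vehicle, 171, 158 and 144 under androgen and 50.2, 95.8 and 101 with celastrol. All 3 celastrol arrays were lower than the androgen arrays, although the first was far below the other two. The log2 change was -1.002 ± 0.28 (limma adjusted p = 0.0409). DUT, the dUTPase that keeps uracil out of DNA, fell by 0.43 ± 0.10 on the log2 scale (limma adjusted p = 0.0225) and was read through a probe set marked as able to bind related sequences. Another bright probe set of DUT gave -0.40 ± 0.13, without a call (limma adjusted p = 0.0918 over probe sets). The calls of TK1 and DUT were lost without any 1 of several arrays. For TK1 these were vehicle 1, each androgen array and celastrol arrays 1 and 2, with an adjusted p of up to 0.127, and for DUT each androgen array and celastrol arrays 1 and 2, up to 0.0763. None of the 5 genes passed the threshold for androgen against vehicle, where RRM2 gave 0.40 ± 0.20 (limma adjusted p = 0.299).

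**Figure D4:**
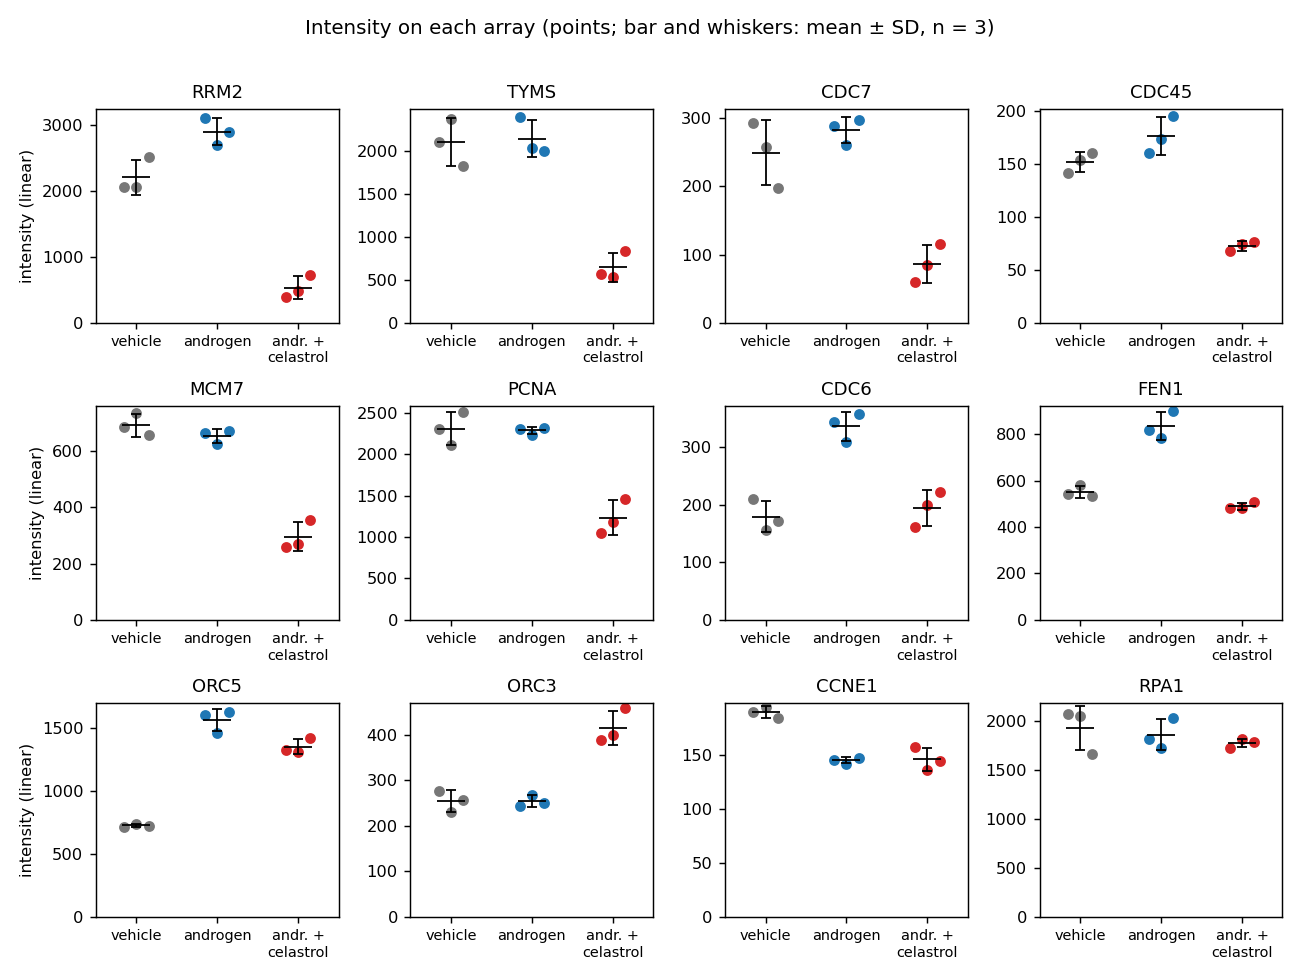
Intensity (linear, vertical axes from 0) on each of the 9 arrays for 12 of the genes, with the mean and SD of each group (n = 3). RRM2, TYMS, CDC7, CDC45, MCM7 and PCNA lie lower on all celastrol arrays than on all others, CDC6 and FEN1 are high with androgen alone, ORC5 is high in both androgen groups, ORC3 is high with celastrol, CCNE1 is low in both androgen groups, and the groups of RPA1 overlap.

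Among the entry genes, celastrol lowered 1 of 4. CDC7, the kinase that phosphorylates the loaded helicase, read 293, 258 and 198 under vehicle, 289, 261 and 298 under androgen and 59.3, 84.3 and 115 with celastrol. Each celastrol array was below each of the other 6, and the fall against androgen was 3.39-fold (log2 change -1.76 ± 0.23, limma adjusted p = 0.0012). E2F1, a transcription factor of the E2F family, read 134, 143 and 88.7 under vehicle, 155, 121 and 119.8 under androgen and 85.6, 127 and 126 with celastrol. Its groups overlapped, and its change of -0.24 ± 0.22 was not called (limma adjusted p = 0.567; 95% interval -0.74 to 0.26).

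The E cyclins, which activate CDK2, were called for androgen and not for celastrol, and whether the responses differ was not tested. CCNE1 read 191, 195 and 184 under vehicle, 145, 142 and 148 under androgen and 158, 136 and 145 with celastrol. Both androgen-treated groups lay below all vehicle arrays and overlapped each other. CCNE1 fell by 0.39 ± 0.08 (log2) under androgen (limma adjusted p = 0.0112), and its celastrol change was 0.01 ± 0.08 with a 95% interval of -0.17 to 0.19. CCNE2 read 346, 362 and 333 under vehicle, 269, 252 and 250.2 under androgen and 219.9, 269 and 262 with celastrol, again with both androgen-treated groups below vehicle. It fell by 0.43 ± 0.10 under androgen (limma adjusted p = 0.017) and changed by -0.04 ± 0.10 with celastrol (95% interval -0.26 to 0.17). The androgen call of CCNE1 was lost without androgen array 2 (adjusted p = 0.0516), and with array medians subtracted, cyclic loess or an intensity trend. That of CCNE2 was lost without androgen array 2 or 3 or vehicle array 1 or 2 (adjusted p up to 0.0693) and when its 2 probe sets were averaged, the second giving -0.20. Without androgen array 2 none of the 48 genes was lowered by androgen.

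Of the 15 licensing genes, celastrol lowered 8 and raised 1, with a median log2 change of -0.48. The helicase subunits MCM2 to MCM7 all lay below 0, 5 of 6 with a call and a median of -0.68. MCM7 read 685, 736 and 656 under vehicle, 664, 626 and 670.1 under androgen and 259.9, 270.4 and 355 with celastrol. No celastrol array reached any of the others, and the fall was 2.24-fold (log2 change -1.16 ± 0.12, limma adjusted p = 0.000365). MCM2 read 411, 439.5 and 319.9 under vehicle, 314, 314 and 426 under androgen and 128, 171 and 231 with celastrol. Its celastrol arrays were the lowest 3 of the 9 but spread widely, and it fell by 1.02 ± 0.22 (limma adjusted p = 0.0152).

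The falls of the other helicase subunits were smaller. MCM4 fell by 0.73 ± 0.18, MCM3 by 0.48 ± 0.12 and MCM6 by 0.45 ± 0.10 on the log2 scale (limma adjusted p = 0.0234, 0.0303 and 0.0129). MCM5 had a change of -0.63 ± 0.27 without a call (limma adjusted p = 0.179), while its second probe set gave -0.63 and passed (adjusted p = 0.00783 over probe sets). Leaving out 1 array ended 4 of these helicase calls. That of MCM6 was lost without androgen array 3 (adjusted p = 0.0547) and that of MCM2 without androgen array 3 or celastrol array 2 (up to 0.0604). Those of MCM3 and MCM4 were lost without any single androgen array or celastrol array 1 or 2 (up to 0.113 and 0.0903).

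Geminin (GMNN), the inhibitor of CDT1, read 1176, 1179.9 and 1244 under vehicle, 1545, 1467 and 1514 under androgen and 663, 717 and 831 with celastrol. Its 3 groups were fully separate, with androgen highest and celastrol lowest. It fell by 1.04 ± 0.09 with celastrol (limma adjusted p = 0.000175), and its androgen change of 0.33 ± 0.09 narrowly missed the threshold (limma adjusted p = 0.0528) and passed it in 7 of 19 alternative analyses. CDC6, which helps the origin complex load the helicase, read 209, 156 and 172 under vehicle, 343, 308 and 356 under androgen and 161, 199.58 and 222 with celastrol. The androgen arrays were above all 6 others, and the other groups overlapped. CDC6 rose 1.89-fold with androgen (log2 change 0.91 ± 0.15, limma adjusted p = 0.00336) and fell by 0.80 ± 0.15 when celastrol was added (limma adjusted p = 0.00632), which left 0.11 ± 0.15 against vehicle (limma adjusted p = 0.615). A second, similarly bright probe set of CDC6 rose by 0.95 ± 0.21 with androgen (limma adjusted p = 0.0192 over probe sets). With celastrol it changed by -0.72 ± 0.21, without a call (limma adjusted p = 0.055 over probe sets). CDT1, the other loading factor, was dim (26.4th percentile of all genes) and changed by 0.21 ± 0.19 without a call.

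The origin recognition subunits were split, with 1 of 6 lowered by celastrol, 1 raised and a median log2 change of -0.09. ORC3 read 277, 229 and 257 under vehicle, 242, 268 and 250.1 under androgen and 389, 399.6 and 458 with celastrol. All celastrol arrays lay above all others, and ORC3 was the 1 replication gene of the 48 that celastrol raised (1.63-fold, log2 change 0.71 ± 0.10, limma adjusted p = 0.00186). ORC5 read 715, 732 and 723 under vehicle, 1600.2, 1459 and 1619.9 under androgen and 1320.4, 1307 and 1417 with celastrol. Androgen raised it 2.15-fold (log2 change 1.11 ± 0.08, limma adjusted p = 2.46e-05), with all vehicle arrays below all others. Its celastrol arrays lay slightly below the androgen arrays (log2 change -0.21 ± 0.08, limma adjusted p = 0.109), and against vehicle ORC5 was still up by 0.90 ± 0.08 (limma adjusted p = 5.96e-05). ORC6, read through a probe set marked as able to bind related sequences, fell by 0.78 ± 0.12 (limma adjusted p = 0.00226). ORC2 changed least (-0.05 ± 0.13, 95% interval -0.33 to 0.24), with 319, 268 and 258 under vehicle, 376, 361 and 286 under androgen and 343, 322 and 319 with celastrol, all overlapping. ORC4 and ORC1, at 0.38 ± 0.13 and -0.12 ± 0.11, had no call, and ORC1 was dim (30.8th percentile of all genes).

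**Figure D5:**
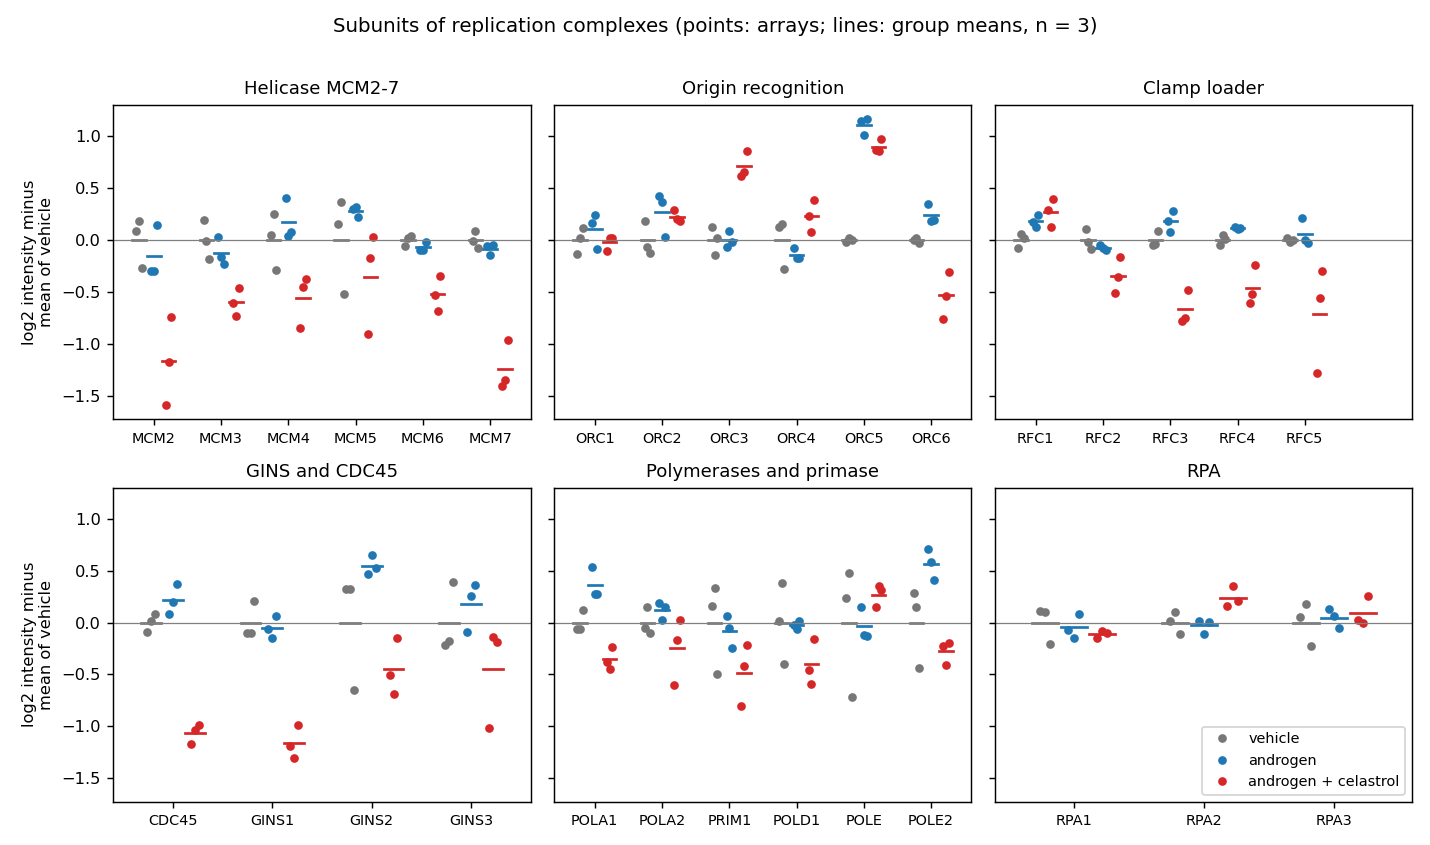
Log2 intensity of each array minus the vehicle mean of the gene (vertical axis) for subunits of 6 replication complexes; points are arrays and short lines group means (n = 3). All 6 helicase subunits lie lower with celastrol than with androgen alone, whereas the origin recognition subunits include ORC3 above and ORC6 below the other groups and the RPA means lie between -0.11 and 0.24.

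At the fork, celastrol lowered 7 of 16 genes and raised none, with a median of -0.51. CDC45, which joins the helicase at activation, read 142, 153 and 159.9 under vehicle, 160.0, 173 and 195 under androgen and 67.1, 73.9 and 76.4 with celastrol. The celastrol arrays were close together and far below the rest, a 2.43-fold fall (log2 change -1.28 ± 0.10, limma adjusted p = 8.76e-05). GINS1, a subunit of the GINS complex that binds beside CDC45, read 1253, 1253 and 1550.0 under vehicle, 1287, 1215 and 1405 under androgen and 589, 543 and 679.9 with celastrol. Again no celastrol array reached the others (log2 change -1.11 ± 0.12, limma adjusted p = 0.000455). MCM10, which takes part in helicase activation, read 117, 105 and 94.8 under vehicle, 143, 110.2 and 109.8 under androgen and 42.1, 67.5 and 65.9 with celastrol, also without overlap, and fell by 1.07 ± 0.19 (limma adjusted p = 0.00575). GINS2 fell by 0.999 ± 0.26 (limma adjusted p = 0.0294), a call lost without any single androgen array or celastrol array 1 or 2 (up to 0.108), and GINS3 changed by -0.62 ± 0.26 without one. A second, similarly bright probe set of GINS3 gave -0.42 ± 0.15, also without a call (limma adjusted p = 0.109 over probe sets). With androgen that probe set rose by 0.58 ± 0.15 (limma adjusted p = 0.0385 over probe sets), where the one used gave 0.17 ± 0.26 without a call.

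Of the polymerase and primase genes, POLA1, the catalytic subunit of polymerase alpha, fell by 0.72 ± 0.11 and POLE2, a subunit of polymerase epsilon, by 0.85 ± 0.18 (limma adjusted p = 0.00217 and 0.0129). The call of POLE2 was lost without androgen array 1 or celastrol array 2 (up to 0.0564). POLA2, PRIM1, POLD1 and POLE, at -0.37, -0.40, -0.38 and 0.31, had no call. FEN1, the nuclease that trims Okazaki fragments, read 540.1, 579 and 533 under vehicle, 819, 783 and 900.2 under androgen and 481, 481 and 506 with celastrol. Like CDC6 it was highest on the androgen arrays, with no overlap between any pair of groups. It rose 1.51-fold with androgen (log2 change 0.60 ± 0.08, limma adjusted p = 0.0013) and fell by 0.77 ± 0.08 with celastrol (limma adjusted p = 0.000381), to -0.17 ± 0.08 from vehicle (limma adjusted p = 0.177). A second, similarly bright probe set of FEN1 gave 0.34 ± 0.12 with androgen, without a call (limma adjusted p = 0.111 over probe sets). With celastrol it fell by 0.53 ± 0.12 (limma adjusted p = 0.0167 over probe sets). LIG1, the ligase that joins those fragments, changed by -0.26 ± 0.11 without a call. The single-strand binding proteins RPA1, RPA2 and RPA3 had no call in any of the 3 comparisons. RPA3 read 1768, 1931 and 1456 under vehicle, 1865, 1784 and 1639.9 under androgen and 1731, 1701 and 2036 with celastrol, with overlapping groups and a celastrol change of 0.05 ± 0.12 (95% interval -0.24 to 0.33). RPA1 changed by -0.06 ± 0.11 (95% interval -0.31 to 0.18) and RPA2 by 0.27 ± 0.09 (limma adjusted p = 0.0854).

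The clamp and 3 of the 5 loader subunits were lowered, with a median of -0.67 over these 6 genes. PCNA, the sliding clamp, read 2309.9, 2107 and 2507 under vehicle, 2306, 2238 and 2320.0 under androgen and 1049, 1184 and 1463 with celastrol. Vehicle and androgen arrays overlapped and all celastrol arrays lay below them, a 1.87-fold fall against androgen (log2 change -0.91 ± 0.13, limma adjusted p = 0.00152). RFC3, a small subunit of the loader, read 1033, 1037 and 1134 under vehicle, 1214, 1129 and 1297 under androgen and 622, 633 and 765 with celastrol. Its celastrol arrays also stood clear below the rest (log2 change -0.85 ± 0.10, limma adjusted p = 0.000793). A second, dimmer probe set of RFC3 gave -0.72 ± 0.27, without a call (limma adjusted p = 0.135 over probe sets). RFC5 read 378, 369 and 372 under vehicle, 432, 373 and 365 under androgen and 153, 253 and 304 with celastrol, with celastrol lowest but widely spread. It fell by 0.78 ± 0.22 (limma adjusted p = 0.042), a call lost without any single androgen array, vehicle array 1 or 2 or celastrol array 2 (up to 0.14). A second, dimmer probe set of RFC5 gave -0.69 ± 0.25, without a call (limma adjusted p = 0.112 over probe sets). RFC4 fell by 0.57 ± 0.10 (limma adjusted p = 0.00491), and RFC2 changed by -0.27 ± 0.10 without a call. RFC1, the large subunit, on a probe set marked in the same way as that of DUT, read 620.0, 683 and 664 under vehicle, 739, 716 and 776 under androgen and 800.1, 716 and 860.1 with celastrol, with overlap between the androgen and celastrol arrays and a change of 0.09 ± 0.09 (95% interval -0.12 to 0.29).

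Both CAF-1 genes, which deposit histones behind the fork, were lower in the combined treatment than under vehicle but had no call against androgen. CHAF1A, read through a probe set marked as able to bind related sequences, gave 290.3, 329 and 243 under vehicle, 306, 312 and 242 under androgen and 179, 215 and 216 with celastrol. The celastrol arrays lay below all others, and the change against androgen was -0.49 ± 0.15 (limma adjusted p = 0.053), which passed in 10 of 19 alternative analyses. Its other probe sets gave -0.48 and -0.17, neither called (adjusted p = 0.342 and 0.708 over probe sets). CHAF1B read 146, 147 and 96.8 under vehicle, 104, 95.9 and 87.1 under androgen and 61.3, 80.6 and 79.6 with celastrol, with the androgen arrays overlapping vehicle and all celastrol arrays below them. It changed by -0.38 ± 0.18 against androgen (limma adjusted p = 0.224) and fell by 0.80 ± 0.18 against vehicle (limma adjusted p = 0.0117). The fall of CHAF1A against vehicle, 0.49 ± 0.15 (limma adjusted p = 0.0404), was lost without any 1 of 7 arrays (vehicle 1 or 2, androgen 1 or 2, or any celastrol array), with an adjusted p of up to 0.126, and when its probe sets were averaged (limma adjusted p = 0.136).

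Other genes of the same pathways were read from wider lists. Over all genes tested, celastrol against androgen lowered 7.24 percent and raised 9.0 percent. Androgen against vehicle lowered 5.84 percent and raised 7.17 percent. Of 21 measured replication factors outside the 48, celastrol lowered 10 and raised 1, with a median of -0.39. The largest changes were those of TOP2A, a topoisomerase that untangles sister chromatids (-2.25 ± 0.14, limma adjusted p = 3.66e-05), RNASEH2A, which removes RNA from DNA (-0.93 ± 0.19, limma adjusted p = 0.00928), and GINS4, the remaining GINS subunit (-0.87 ± 0.15, limma adjusted p = 0.00446). POLE3 changed least, at -0.00077 ± 0.13. POLD4, a small subunit of polymerase delta, was the 1 gene of this list that rose (0.84 ± 0.14, limma adjusted p = 0.00355). DBF4, the activating partner of CDC7, rose by 0.80 ± 0.14 with androgen, the 1 gene of the list to do so, and fell by 0.80 ± 0.14 with celastrol (limma adjusted p = 0.00467 and 0.00455), to 0.00 ± 0.14 from vehicle.

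Of 22 measured further genes of nucleotide synthesis, celastrol lowered 11 and raised 1, with a median of -0.32 and none lowered 2-fold. SAMHD1, which degrades deoxyribonucleotides rather than making them, changed by -0.77 ± 0.18, thymidylate kinase DTYMK by -0.66 ± 0.18 and deoxycytidine kinase DCK by -0.64 ± 0.12 (limma adjusted p = 0.0187, 0.0357 and 0.00752). The call of SAMHD1 was lost without any single androgen array (up to 0.0624), and that of DTYMK without any single androgen array or celastrol array 1 or 2 (up to 0.12). IMPDH2 changed least (-0.03 ± 0.07), and GMPS, which makes GMP, was the 1 gene that rose (0.37 ± 0.08, limma adjusted p = 0.0162; up to 0.0623 without any single androgen array or celastrol array 3). With androgen, 3 of the 22 rose and 1 fell (13.6 and 4.55 percent, against 7.17 and 5.84 percent of all genes). IMPDH1, an enzyme of guanine nucleotide synthesis, rose by 0.97 ± 0.08, the pyrimidine enzyme UMPS by 0.42 ± 0.08 and PRPS1, which makes the shared precursor PRPP, by 0.29 ± 0.08, while the purine enzyme ATIC fell by 0.47 ± 0.07 (limma adjusted p = 8.13e-05, 0.00729, 0.0433 and 0.00224). The call of PRPS1 was lost without vehicle 1 or 2, any single androgen array or celastrol array 2 or 3 (up to 0.165).

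In the E2F and Rb circuit, celastrol lowered 5 of 15 measured genes and raised 3, with a median of -0.14. These are 33.3 and 20.0 percent, against 7.24 and 9.0 percent of all genes. E2F8, a repressor of the E2F family, changed by -1.35 ± 0.17, cyclin A2 (CCNA2) by -1.07 ± 0.20 and E2F5 by -0.74 ± 0.15 (limma adjusted p = 0.000884, 0.00658 and 0.00934). E2F2 changed least (-0.03 ± 0.28), but it was dim, with 25.2 to 31.5 under androgen and 25.3 to 29.0 with celastrol, where a fall is hard to detect. The 3 that rose restrain the cycle, namely the CDK inhibitors CDKN1A (0.54 ± 0.13) and CDKN1B (0.48 ± 0.08) and the Rb relative RBL2 (0.29 ± 0.08), with limma adjusted p = 0.0218, 0.00299 and 0.0324. The call of CDKN1A was lost without any single androgen array or celastrol array 2 or 3 (up to 0.084). That of RBL2 was lost without any 1 of 7 arrays (vehicle 1, any androgen or any celastrol array, up to 0.0999). With the combined treatment against vehicle, CDKN1A had no call (0.22 ± 0.13, limma adjusted p = 0.267) and RBL2 was lower (-0.26 ± 0.08, limma adjusted p = 0.0391). CDKN1B was higher there (0.25 ± 0.08, limma adjusted p = 0.0429), a call lost in 15 of 19 alternative analyses. RB1 itself changed by -0.14 ± 0.09 with celastrol against androgen, without a call. The same comparison lowered CDC25A by 0.59 ± 0.15 and TFDP1 by 0.49 ± 0.11 (limma adjusted p = 0.0257 and 0.0179). The call of CDC25A was lost without androgen array 1 or 3 or celastrol array 2 (up to 0.0938). For TFDP1 such fits are not given here for this comparison. With androgen, CDC25A, a phosphatase that activates CDK2, rose by 0.96 ± 0.15 and E2F8 by 0.77 ± 0.17, while RBL2, TFDP1 and TFDP2 fell by 0.55 ± 0.08, 0.51 ± 0.11 and 0.33 ± 0.09; without 1 array the calls of E2F8 (androgen 2 or 3), TFDP1 (vehicle 1 or any single androgen array) and TFDP2 (vehicle 1 or 2, any single androgen array, or celastrol 2 or 3) were lost, with an adjusted p of up to 0.0653, 0.0664 and 0.129.

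Of 9 histone chaperones celastrol lowered 3 and raised 1 (33.3 and 11.1 percent, against 7.24 and 9.0 percent of all genes). The share raised thus lay near that of all genes. ASF1B, the proliferation-linked ASF1 form, changed by -1.09 ± 0.29, RBBP7 by -0.46 ± 0.07 and SSRP1 by -0.36 ± 0.09 (limma adjusted p = 0.0341, 0.00322 and 0.0229), whereas ASF1A rose by 0.93 ± 0.07 (limma adjusted p = 8.00e-05) and RBBP4 changed least (0.01 ± 0.08). The call of ASF1B was lost without vehicle array 1, any single androgen array or celastrol array 1 or 2 (adjusted p up to 0.116), and that of SSRP1 without any single androgen array or celastrol array 2 or 3 (up to 0.0849). With androgen ASF1A fell by 0.33 ± 0.07 (limma adjusted p = 0.0159), lost without vehicle array 1 or androgen array 2 (up to 0.0731).

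Against vehicle, the combined treatment lowered 6 of 15 licensing genes, 4 of 16 fork genes, 5 of 6 clamp and loader genes, 3 of 5 nucleotide genes, 3 of 4 entry genes and both CAF-1 genes. Of all genes tested, 10.0 percent were lowered in the same comparison. RRM2 was -2.09 ± 0.20 from vehicle, TYMS -1.73 ± 0.18, CDC7 -1.57 ± 0.23, MCM7 -1.24 ± 0.12 and PCNA -0.92 ± 0.13 (limma adjusted p = 0.000122, 0.000171, 0.00132, 0.000123 and 0.000832). Both groups of this comparison were treated for 24 h by title and description alike. The calls of POLA1, RFC2 and RFC5 here, at -0.36, -0.35 and -0.71, were each lost without any 1 of 7 arrays, with an adjusted p of up to 0.125, 0.12 and 0.101. For POLA1 these were every vehicle array, androgen 2 or 3 and celastrol 1 or 2, for RFC2 vehicle 1 or 2, every androgen array and celastrol 1 or 2, and for RFC5 every vehicle and androgen array and celastrol 2. That of TK1, at -1.06, was lost without vehicle array 1 or 2 (up to 0.0744).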

How the data were processed

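RNA from 9 cultures of LNCaP cells was taken up in Trizol, and biotinylated cRNA was put on Affymetrix arrays, per the labels' protocols. The authors deposited 1 intensity per probe set and array, made with RMA per the submitters' processing notes; its version is not given in the sources used here. RMA is meant to bring arrays to a common distribution, which removes differences in total RNA. The upper quartiles of the deposited values still ranged from 332 to 409. The values (16.5 to 25018) are linear and were put on a log2 scale with a pseudocount of 0.

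The table has 22215 probe sets, and the annotation pairs 19724 with a single gene, 568 with several and 1923 with none. The probe set with the highest mean log2 value stood for each of 12165 genes. All 9 arrays were fitted with limma 3.58.1 in R 4.3.3 without a replicate block or trend (6 residual and 2.7 prior degrees of freedom), with Benjamini-Hochberg adjustment over all genes and a threshold of 0.05. The fit was tested on simulated data.

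The 48 genes and all lists were chosen with earlier results of these data known. Array values are given for the 3 largest and the smallest celastrol changes per role and for the androgen calls, and of each wider list the 3 largest called changes and the smallest are named. ORC3, GMPS, POLD4, DBF4, IMPDH1, CDKN1A, CDKN1B and RBL2 were added after their values were seen. So were the celastrol values of CDC25A and TFDP1 and the androgen values of wider-list genes. List members outside the 12165 genes were not analysed here.

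Deviations of same-numbered arrays from their group means correlated at 0.40, 0.37 and 0.63 between vehicle and androgen, but at -0.09, 0.21 and -0.19 between androgen and the combined treatment and -0.26, 0.11 and -0.29 between vehicle and the combined treatment, so that numbers were taken to pair only the first, from the data and not from the labels. Numbers do not tell arrays 1 and 2 apart there: vehicle 2 correlated at 0.41 with androgen 1, and vehicle 1 at 0.30 with androgen 2. Alternatives covered scaling, pseudocount, filter, probe sets, variance model, the replicate block and each array left out. Arrays in this number limit the precision.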

Additional observations from a re-analysis of the deposited data

How the results depend on the processing

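No result reversed under any of the 19 alternatives. Calls present under all of them were 15 of the 24 falls and the rise with celastrol against androgen, the 3 rises but neither fall with androgen against vehicle, and 9 of 23 falls and both rises of the combined treatment against vehicle. With celastrol against androgen, the genes raised numbered 2 under an intensity trend or with only the 2 groups fitted, in place of 1. With androgen against vehicle, the genes lowered numbered 1, in place of 2, with array medians subtracted, cyclic loess, probe sets averaged or an intensity trend, and the genes raised numbered 5, in place of 3, with a pseudocount of 16 or the lowest 25% of genes left out.

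Leaving out 1 array gave 17 to 28 genes changed, 1 to 3 raised and 16 to 25 lowered for celastrol against androgen, with 16 lowered without celastrol array 2 and 3 raised without vehicle array 3. For androgen against vehicle it gave 3 to 7 changed, 3 to 4 raised and 0 to 3 lowered, with 3 changed and 0 lowered without androgen array 2, and 1 lowered without androgen array 3 or vehicle array 1 or 2. For the combined treatment against vehicle it gave 20 to 29 changed, 2 to 3 raised and 18 to 27 lowered.

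With the replicate number as a block, 5 genes changed with androgen against vehicle (3 raised, 2 lowered), and with only those 2 groups POLE2 was added to the rises. The arrays of the combined treatment share only a number with the others; there the block gave 21 changed against androgen (1 raised, 20 lowered) and 22 against vehicle (2 raised, 20 lowered), and with only the 2 groups compared 21 and 11 (9 lowered). It changed no other count by over 1.5 times.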
